A study of Mus musculus with 6 samples.

Results

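Proline, arginine, glutamine and asparagine are connected by a small set of enzymes, and 8 of their genes were examined in mesangial cells treated with TGF-β1. These cells contract and hold together the capillaries of the glomerulus in the kidney. The genes were taken by symbol: Aldh18a1, Pycr1, Prodh, Oat, Arg1, Arg2, Ass1 and Asns. Each had 1 row among the 19730 rows of the expression table. RNA-Seq was performed on 3 Control libraries and 3 TGF-β1 libraries of primary mouse mesangial cells. All cultures were at passages 3 to 6 in high-glucose medium (25.5 mM) with 20% serum. Treatment with TGF-β1 was at 10 ng/ml and lasted 72 h. The labels name no mouse strain, age or sex, and they do not say whether the libraries came from separate cultures or animals, so p-values measure only the spread between these samples. The comparison asks which of these genes change when the cells receive TGF-β1, a secreted protein that drives scarring.

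In this part of metabolism, glutamate is turned into pyrroline-5-carboxylate, which is reduced to proline. Ornithine, made from arginine by arginase, can enter the same intermediate, and proline oxidation returns proline to it. Arginine is rebuilt from citrulline and aspartate, and glutamine gives its amide group to aspartate to make asparagine. Proline is a main amino acid of collagen, and mesangial cells exposed to TGF-β1 are known for matrix production.

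Depth was 10.1 to 11.1 M mapped fragments per library, as read from the steps of the lowest values with an assumed fragment length of 200 nt. Levels are FPKM, fragments per kilobase of transcript per M (mega) mapped fragments, so levels of different genes can be compared per length. Of 8 mesangial and pericyte markers, Acta2 rose from 997 ± 89.7 to 3887 ± 348 FPKM (SD, n = 3; limma adjusted p 8.64e-05) and Pdgfrb fell from 37.5 ± 4.82 to 29.2 ± 0.751 FPKM (limma adjusted p 0.0396), while 4 (Itga8, Des, Thy1 and Pdgfra) were under 1 FPKM in all 6 libraries. Cspg4 rose from 0.0735 ± 0.0367 to 1.21 ± 0.257 FPKM (limma adjusted p 9.51e-04 in a fit over all rows). Gata3 was at 1.76 ± 0.882 and 1.03 ± 0.211 FPKM and was not called (limma adjusted p 0.276). Cdh16, a cadherin of kidney tubules, was at 114 to 146 FPKM in Control and 5.75 to 6.87 FPKM with TGF-β1, so the markers fit the labelled cell type only in part. The libraries numbered 2 deviated together from their group means, with a correlation across genes of 0.23, against 0.12 or less for every other pair of a Control and a TGF-β1 library. The calls of the 8 genes are therefore also given within replicates 1 and 3, as are calls of other named genes that were lost there.

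Expression of 6 of the 8 genes was higher with TGF-β1, and none was lower. Of the 8, 6 passed the filter of a mean of at least 1 FPKM, also within Control alone, and all 6 were called (limma on log2(FPKM + 1), adjusted p under 0.05 over all tested rows). The rise was over 2-fold on the log2 scale for 5 of them, Arg1, Pycr1, Asns, Ass1 and Aldh18a1, and smaller for Oat. Among all 11898 tested rows, 48.1% were called, 24.5% as higher and 23.6% as lower, and 6.56% were called with a log2 change of at least 1. Every TGF-β1 library lay above every Control library for the 6 genes, which held for 29.9% of tested rows. The median log2 change of the 6 genes was 2.19, against -0.02 over all tested rows. The genes were chosen with earlier results of these data known, so these contrasts with all tested rows only describe the chosen genes. Prodh and Arg2 stayed under the filter. Without replicate 2, 5 of the 6 calls were made, all but Oat. These are bulk samples, in which more RNA per cell and more cells of an expressing type cannot be told apart.

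**Figure D1:**
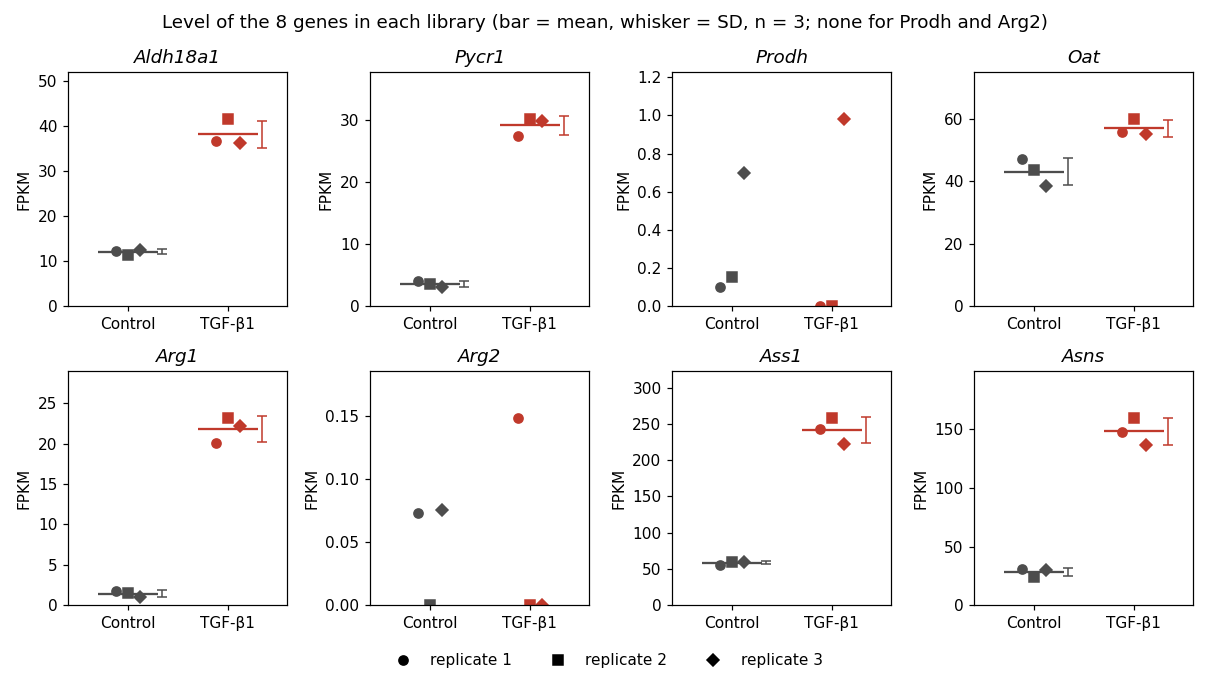
FPKM of each of the 8 genes (vertical axes, linear from 0, a scale for each gene) in the 3 Control and 3 TGF-β1 libraries, with marker shapes for replicates 1 to 3, horizontal bars for group means and whiskers for SD; Prodh and Arg2, with values listed at 0, have points only. For Aldh18a1, Pycr1, Oat, Arg1, Ass1 and Asns every TGF-β1 point lies above every Control point, from 20.1 against at most 1.76 FPKM for Arg1 to 55.3 against at most 47.1 FPKM for Oat.

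Proline synthesis from glutamate begins with Aldh18a1 (mm9 chromosome 19, 40624747 to 40662953), which encodes the enzyme that makes pyrroline-5-carboxylate. Its level was 12.2, 11.4 and 12.5 FPKM in Control replicates 1 to 3 and 36.5, 41.6 and 36.2 FPKM in TGF-β1 replicates 1 to 3. The groups did not overlap, and the spread within each was small beside the gap. The group means were 12.1 ± 0.565 and 38.1 ± 3.00 FPKM (SD, n = 3), a 3.16-fold ratio of means. The log2 change was 1.58 (SE 0.0864, limma adjusted p 5.29e-05). By size, this increase ranked 356 of 11898. A pseudogene, Gm15801, lies within the gene and shares no exon bases with the transcript of the row.

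Pycr1 (mm9 chromosome 11, 120497026 to 120505083) encodes a mitochondrial reductase that completes proline synthesis. It was at 4.07, 3.59 and 3.11 FPKM in Control and at 27.4, 30.3 and 29.9 FPKM with TGF-β1. The lowest treated library was far above the highest Control library. Its mean rose 8.13-fold, from 3.59 ± 0.479 to 29.2 ± 1.56 FPKM (SD, n = 3). The log2 change was 2.72 (SE 0.103, limma adjusted p 1.58e-05), and the increase ranked 92 of 11898. The row rested on about 91.2 to 123 fragments per Control library and about 818 to 876 per TGF-β1 library.

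Pycrl, a cytosolic relative of Pycr1 singled out after its values were seen, did not pass the test. It was at 26.5, 29.1 and 17.4 FPKM in Control and at 27.8, 23.1 and 26.8 FPKM with TGF-β1 (log2 change 0.11, 95% interval -0.36 to 0.58, limma adjusted p 0.662). Its groups overlapped. The direction turned without Control replicate 3, to -0.10, and when libraries were scaled to the sum of their protein-coding rows, to -0.075. Related genes can share reads, and how such reads were counted is not given in the sources used here.

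Of the 6 genes with a promoter to search, Pycr1 and Asns were the 2 that held a short motif bound by ATF4, the transcription factor of the amino acid response. The motif searched was TGATGNAA, on both strands, in the RefSeq promoters of GRCm38.p6 (250 bases before to 50 after the start of a gene). It was present in 3.97% of 32851 promoters. Promoters matched 6 of the 8 genes (Aldh18a1, Pycr1, Prodh, Oat, Ass1 and Asns), while Arg1 and Arg2 had no promoter entry and were not searched. Of 42 other pathway genes with a promoter, 1 held the motif: Got1, the cytosolic aspartate aminotransferase. Pycr1, Asns and Got1 were called higher, and so were Aldh18a1, Oat and Ass1, whose promoters lacked the motif. Prodh also lacked it and stayed under the filter. The 3 windows below are all the matches in the promoters of the 8 genes and the other pathway genes. Each was found once, by exact match of the whole promoter, on mm9. Letters run 5′ to 3′ on the strand of the gene, and capitals mark the motif.
Pycr1 (chr11:120505147-120505176, minus strand): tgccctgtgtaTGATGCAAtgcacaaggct
Asns (chr6:7643214-7643243, minus strand): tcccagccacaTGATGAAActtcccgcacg
Got1 (chr19:43599179-43599208, minus strand): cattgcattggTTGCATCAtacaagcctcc

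Counted from the RefSeq start, which differs from the GENCODE M1 gene boundary printed for Pycr1 and Asns, the motif began at position -103 in Pycr1, -23 in Asns and -102 in Got1. On the minus strand the GENCODE M1 genes start at 7643254 for Asns and at 120505083 for Pycr1. By that start the Asns window lies inside its gene, and the Pycr1 window lies before its gene. In Got1 the motif was read on the strand opposite to the gene. A match describes the letters of these windows, and binding was not measured in the samples used here.

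Oat (mm9 chromosome 7, 139749158 to 139768081) encodes ornithine aminotransferase, which links ornithine to the proline intermediate. It was at 47.1, 43.7 and 38.5 FPKM in Control and at 55.7, 60.1 and 55.3 FPKM with TGF-β1. All treated libraries were higher, with a narrower gap than in the other 5 genes. The group means were 43.1 ± 4.33 and 57.0 ± 2.67 FPKM (SD, n = 3), a 1.32-fold ratio. The log2 change was 0.40 (SE 0.0960, limma adjusted p 0.0153). The call was lost within replicates 1 and 3 (log2 change 0.37, limma adjusted p 0.0875) and when libraries were scaled to the sum of their protein-coding rows (0.21, limma adjusted p 0.0931). That scaling moved the median log2 change of all tested rows from -0.02 to -0.19. Oat lies within the span of Fgfr2 on the same strand, and their exons share no bases.

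Prodh (mm9 chromosome 16, 18060450 to 18090296) encodes proline oxidase, which starts proline breakdown. It was listed at 0.101, 0.152 and 0.698 FPKM in Control and at 0, 0 and 0.983 FPKM with TGF-β1. The groups overlapped, and in each group replicate 3 was the highest. The fit without the filter gave a log2 change of -0.04 (95% interval -0.82 to 0.74, limma adjusted p 0.946), and no difference was detectable at these levels. Its row is a transcript of 677 nt with 2 exons, 1 of 7 transcripts of the gene, and the values may not cover the others. Aldh4a1, which oxidizes the proline intermediate to glutamate, was at 7.21, 8.41 and 11.2 FPKM in Control and at 7.42, 5.83 and 6.42 FPKM with TGF-β1 (limma adjusted p 0.106). Hoga1, an enzyme of hydroxyproline breakdown, fell from 8.005 ± 0.666 to 3.55 ± 0.550 FPKM (SD, n = 3; limma log2 change -0.99, adjusted p 0.00101). Of 5 further genes of proline turnover, 4 were tested, and Hoga1 was the 1 called, which is 25.0% against 48.1% of all tested rows.

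The arginine genes changed unequally. Ass1 (mm9 chromosome 2, 31325727 to 31376192) encodes argininosuccinate synthase, which joins citrulline and aspartate and limits arginine synthesis outside the liver. It had the highest level of the 8 genes in both groups, at 56.1, 59.4 and 59.9 FPKM in Control and 244, 258 and 222 FPKM with TGF-β1. Control libraries differed little from each other. The mean rose 4.13-fold, from 58.4 ± 2.05 to 241 ± 18.2 FPKM (SD, n = 3). The log2 change was 2.03 (SE 0.0847, limma adjusted p 2.15e-05), and the increase ranked 192 of 11898.

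Asl, the lyase that acts after Ass1 and releases arginine, was also singled out after its values were seen, and it went the other way by a small amount. It was at 29.2, 31.1 and 28.7 FPKM in Control and at 24.4, 23.6 and 25.5 FPKM with TGF-β1 (log2 change -0.27, limma adjusted p 0.0258). The call was lost in 7 of 17 alternatives, with adjusted p-values of 0.00454 to 0.133 over all of them. Among the 7 were the fit within replicates 1 and 3 (limma adjusted p 0.133) and those without Control replicate 1 or 2 or TGF-β1 replicate 1 or 2. The ratio of Ass1 to Asl was 1.92, 1.91 and 2.09 in the Control libraries, against 9.97, 10.97 and 8.72 under TGF-β1.

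Arginase cleaves arginine to ornithine and urea, and its 2 genes were at very different levels. Arg1 (mm9 chromosome 10, 24635014 to 24647276), the cytosolic arginase, had the largest change of the 8 genes. It was at 1.76, 1.56 and 1.02 FPKM in Control and at 20.1, 23.2 and 22.2 FPKM with TGF-β1. The Control values rested on about 14.03 to 25.0 fragments and the TGF-β1 values on about 282 to 306. The mean rose 15.1-fold, from 1.45 ± 0.386 to 21.8 ± 1.59 FPKM (SD, n = 3). The log2 change was 3.23 (SE 0.14, limma adjusted p 2.36e-05), and the increase ranked 62 of 11898. On the log2(FPKM + 1) scale the low Control level makes this change smaller than the ratio of means. With a pseudocount of 0.1 it was 3.85.

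Arg2 (mm9 chromosome 12, 80231764 to 80257288), the mitochondrial arginase, was barely detected. It was listed at 0.0733, 0 and 0.0755 FPKM in Control and at 0.148, 0 and 0 FPKM with TGF-β1. These values correspond to about 1, 0 and 1 fragments and to about 2, 0 and 0 fragments. No difference was detectable at this depth (limma adjusted p 0.992 without the filter). The row shares 285 exon bases with Vti1b on the opposite strand, and whether counting used strand is not given in the sources used here.

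Arg1 is also known as a gene of alternatively activated macrophages, and Ass1 is strong in proximal tubule, so markers of both cell types were read. Of 8 macrophage markers, 7 were in the table, and their summed level was 87.0 to 114 FPKM in Control and 9.03 to 11.9 FPKM with TGF-β1. The leukocyte marker Ptprc was at most 0.0448 FPKM in any library, and 4 of the 7 were under 1 FPKM in all 6 libraries. Cd14 made up most of the sum and fell from 94.3 ± 13.6 to 7.71 ± 0.819 FPKM (SD, n = 3). Csf1r, which passed the filter only through its Control values, fell from 6.27 ± 0.979 to 0.411 ± 0.156 FPKM (limma adjusted p 8.56e-05). Cd68 was at 2.79 ± 0.836 and 2.22 ± 0.448 FPKM and was not called (limma adjusted p 0.393). Of 8 genes listed as proximal tubule markers, 4 were in the table (Lrp2, Cubn, Aqp1 and Cdh16), with a sum of 126 to 161 FPKM in Control and 7.26 to 8.67 FPKM with TGF-β1. Most of that sum was Cdh16, the cadherin of kidney tubules named above (130 ± 16.1 FPKM in Control), so the sum mainly follows that gene. Aqp1 fell from 10.4 ± 1.62 to 0.169 ± 0.0855 FPKM and Lrp2 from 1.43 ± 0.443 to 0.230 ± 0.0167 FPKM (SD, n = 3). Cubn went the other way, from 0.636 ± 0.0795 to 1.28 ± 0.0481 FPKM. Aqp1 passed the filter only through its Control values, and Lrp2 and Cubn had a mean over all libraries under the filter. Of 6 podocyte markers, 5 were in the table with sums of 19.7 to 24.9 and 12.6 to 13.7 FPKM, and 5 endothelial markers summed to at most 0.822 FPKM. Their part in the results was not tested.

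Asns (mm9 chromosome 6, 7625169 to 7643254) encodes asparagine synthetase, which moves the amide of glutamine to aspartate. It was at 30.6, 24.1 and 30.1 FPKM in Control and at 148, 159 and 137 FPKM with TGF-β1. The groups were far apart. The mean rose 5.23-fold, from 28.2 ± 3.64 to 148 ± 11.4 FPKM (SD, n = 3). The log2 change was 2.35 (SE 0.118, limma adjusted p 3.78e-05), and the increase ranked 127 of 11898. The gene has 7 annotated transcripts, and the row is labelled with 1 of them.

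The order of the levels changed at 1 place. In Control it ran from Ass1 over Oat, Asns, Aldh18a1, Pycr1, Arg1 and Prodh to Arg2, and the ranges of neighbours did not overlap. With TGF-β1 the order was Ass1, Asns, Oat, Aldh18a1, Pycr1 and Arg1, again with no overlap of neighbours, followed by Prodh and Arg2, which overlapped. Asns was thus below Oat in every Control library and above it in every TGF-β1 library. The 3 tested rows with a profile most like that of Arg1 were Acsbg1, Klhl1 and Dgkk. Their root mean square differences from Arg1 over the 6 libraries, each gene centred on its Control mean on the log2(FPKM + 1) scale, were 0.137, 0.146 and 0.172. Their means were 0.205, 0.480 and 0.184 FPKM in Control, against 1.45 FPKM for Arg1. With TGF-β1 they were 11.1, 11.9 and 8.96 FPKM, against 21.8 FPKM. All 3 rows thus passed the filter only through their TGF-β1 values. At Control levels this low the added 1 FPKM dampens fold changes, so the likeness is stated for this scale only.

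Further genes of the same pathways were read from lists of 58 genes, of which 54 were in the table and 40 were tested. Of these, 22 were called, 12 higher and 10 lower, which is 55.0% against the 48.1% of all tested rows. Their median log2 change was -0.02, equal to that of all tested rows at this rounding. Without Control replicate 1, Control replicate 2 or TGF-β1 replicate 1 the count was 14 in each case, and within replicates 1 and 3 it was 16. Scaling to the sum of protein-coding rows gave 23 calls, 8 higher and 15 lower, and over all tested rows 2015 were then higher and 3927 lower, against 2911 and 2810 in the deposited values. Slc25a29 and Nat8l, both called higher, passed the filter only through their TGF-β1 values.

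Genes of glutamine and glutamate went both ways, with 2 of 9 tested higher, 4 lower and 3 not called. The share called was 66.7%, against 48.1% of all tested rows. Glul, which makes glutamine from glutamate, had the largest decrease of the lists. It was at 57.7, 64.7 and 64.9 FPKM in Control and at 13.96, 17.9 and 18.3 FPKM with TGF-β1 (log2 change -1.85, limma adjusted p 9.90e-05). Gclc, the catalytic subunit of glutamate-cysteine ligase, fell from 33.2 ± 3.69 to 13.9 ± 1.42 FPKM (limma log2 change -1.19, adjusted p 3.82e-04). Got1, which makes aspartate and glutamate interchangeable with their keto acids, rose from 19.9 ± 2.74 to 44.0 ± 4.14 FPKM (SD, n = 3; limma log2 change 1.11, adjusted p 6.91e-04).

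Of the same list, 2 more genes were singled out after their values were seen. Gpt2, the mitochondrial alanine aminotransferase, rose from 8.31 ± 0.485 to 17.9 ± 0.280 FPKM. Glud1, glutamate dehydrogenase, fell from 132 ± 2.89 to 77.4 ± 3.03 FPKM (SD, n = 3). On the log2 scale Gpt2 changed by 1.02 (limma adjusted p 1.59e-04) and Glud1 by -0.76 (3.32e-04). Gpt, the other alanine aminotransferase of the list, went the other way, from 2.32 ± 0.339 to 1.06 ± 0.509 FPKM (SD, n = 3; limma log2 change -0.72, adjusted p 0.0329).

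Enzymes other than Asns that use the amide of glutamine included 8 tested genes, of which 3 were higher and none lower, a share of 37.5% called against the 48.1% of all tested rows. Gfpt1, the first enzyme of hexosamine synthesis, rose from 11.6 ± 0.591 to 18.3 ± 1.41 FPKM (limma log2 change 0.61, adjusted p 0.00206). Ctps, which makes CTP, rose from 24.4 ± 0.439 to 35.3 ± 1.89 FPKM (SD, n = 3; limma log2 change 0.52, adjusted p 0.00196). Cad, which starts pyrimidine synthesis, was at 8.36, 8.78 and 8.54 FPKM in Control and at 14.5, 9.71 and 14.3 FPKM with TGF-β1. Its call (log2 change 0.51, limma adjusted p 0.0352) was lost in 8 of 17 alternatives, among them each fit that left out 1 library except the fit without TGF-β1 replicate 2, with adjusted p-values of up to 0.117.

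Polyamines are made from ornithine, the product of arginase, and 3 of their 10 tested genes were higher, 3 lower and 4 not called. The share called was 60.0%, against 48.1% of all tested rows. Srm, spermidine synthase, rose from 20.7 ± 3.95 to 51.5 ± 5.66 FPKM (limma log2 change 1.28, adjusted p 8.75e-04). Azin1, which protects ornithine decarboxylase from its antizymes, rose from 10.9 ± 2.001 to 25.2 ± 4.04 FPKM (SD, n = 3; limma log2 change 1.14, adjusted p 0.00205). Paox, a polyamine oxidase, was at 6.53, 6.13 and 6.65 FPKM in Control and at 4.43, 5.29 and 3.37 FPKM with TGF-β1 (limma adjusted p 0.0337). Odc1, ornithine decarboxylase itself, was singled out after its values were seen, at 54.3, 51.4 and 71.9 FPKM in Control and 43.8, 45.0 and 42.2 FPKM with TGF-β1 (limma adjusted p 0.0444). The calls of Paox and Odc1 were lost in 8 and 10 of 17 alternatives. For Paox these included each fit that left out 1 library except the fit without TGF-β1 replicate 2, and for Odc1 those without Control replicate 1 or any TGF-β1 library, with adjusted p-values of up to 0.0884 and 0.120. The call of Odc1 was also lost within replicates 1 and 3 (limma adjusted p 0.0707).

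Of 16 other genes of arginine and the urea cycle, 13 were in the table and 7 were tested, with 3 higher, 2 lower and 2 not called. The share called was 71.4%, against 48.1% of all tested rows. The 3 called higher include Slc25a29, which passed the filter only through its TGF-β1 values and was not called without a filter (limma adjusted p 0.0505). Ddah1, which clears the methylarginines that inhibit nitric oxide synthases, rose from 19.6 ± 0.715 to 49.7 ± 4.64 FPKM (limma log2 change 1.30, adjusted p 1.20e-04). Gamt, the second enzyme of creatine synthesis, fell from 20.9 ± 4.33 to 10.1 ± 0.456 FPKM (SD, n = 3; limma log2 change -0.96, adjusted p 0.00324). Gatm, the first enzyme, was under the filter and went the other way, from 0.461 ± 0.118 to 1.45 ± 0.469 FPKM (limma adjusted p 0.0164 in a fit over all rows). Slc25a29, a mitochondrial carrier of basic amino acids, was at 0.634, 0.611 and 0.627 FPKM in Control and at 2.001, 0.890 and 1.66 FPKM with TGF-β1 (limma adjusted p 0.0422). That call was lost in 9 of 16 alternatives, including every fit that left out 1 library except the fit without TGF-β1 replicate 2, with adjusted p-values of up to 0.108. Otc and Cps1, the urea cycle enzymes of liver mitochondria, were at most 0.0466 and 0.0690 FPKM in any library.

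Nat8l, which makes N-acetylaspartate from aspartate, passed the filter only through its TGF-β1 values and was also called without a filter (limma adjusted p 7.85e-05). It was at 0.444, 0.544 and 0.366 FPKM in Control and at 8.38, 6.89 and 7.81 FPKM with TGF-β1 (log2 change 2.58, limma adjusted p 2.55e-05). Asrgl1, an asparaginase, was at 1.77, 1.88 and 1.76 FPKM in Control and at 0.685, 1.19 and 1.45 FPKM with TGF-β1 (limma adjusted p 0.0742). The groups were apart, but the gene missed the threshold. It passed without TGF-β1 replicate 3 (0.0440) and with scaling to protein-coding rows (0.0355). Aspa, which cleaves N-acetylaspartate, was at most 0.531 FPKM in any library.

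**Figure D2:**
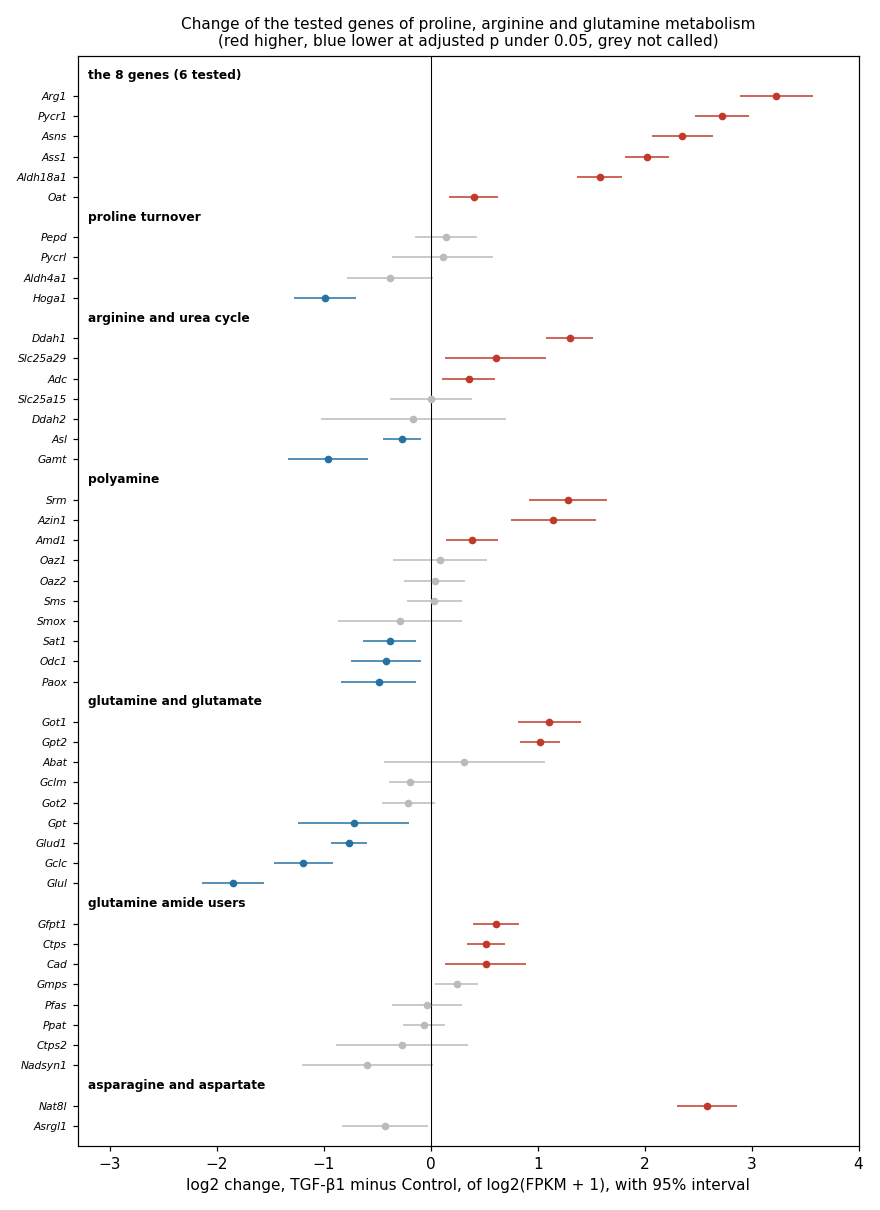
Log2 change (horizontal axis, TGF-β1 minus Control on the log2(FPKM + 1) scale) with 95% interval for the 6 tested genes of the 8 and for the 40 other tested genes, grouped by list; red is called higher, blue called lower and grey not called. The 6 genes run from 0.40 for Oat to 3.23 for Arg1, while the other lists lie on both sides of 0, from -1.85 for Glul to 2.58 for Nat8l, which passed the filter only through its TGF-β1 values.

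Ratios of genes within a library do not depend on how libraries are scaled, and 4 of them, chosen after the values were seen, are given as a description with no test. Aldh18a1 and Oat lead into the proline intermediate from glutamate and from ornithine. The ratio of Aldh18a1 to Oat was 0.259, 0.262 and 0.326 in the Control libraries, against 0.656, 0.692 and 0.656 under TGF-β1. The ratio of Ass1 to Asl averaged 1.97 ± 0.1001 (SD, n = 3) in Control libraries and 9.89 ± 1.13 in treated ones. The ratio of Asns, a user of glutamine, to Glul, its maker, was 0.529, 0.372 and 0.464 in the Control libraries, against 10.6, 8.90 and 7.47 under TGF-β1. The ratio of Arg1 to Odc1 was 0.0325, 0.0303 and 0.0141 in the Control libraries, against 0.458, 0.514 and 0.525 under TGF-β1.

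**Figure D3:**
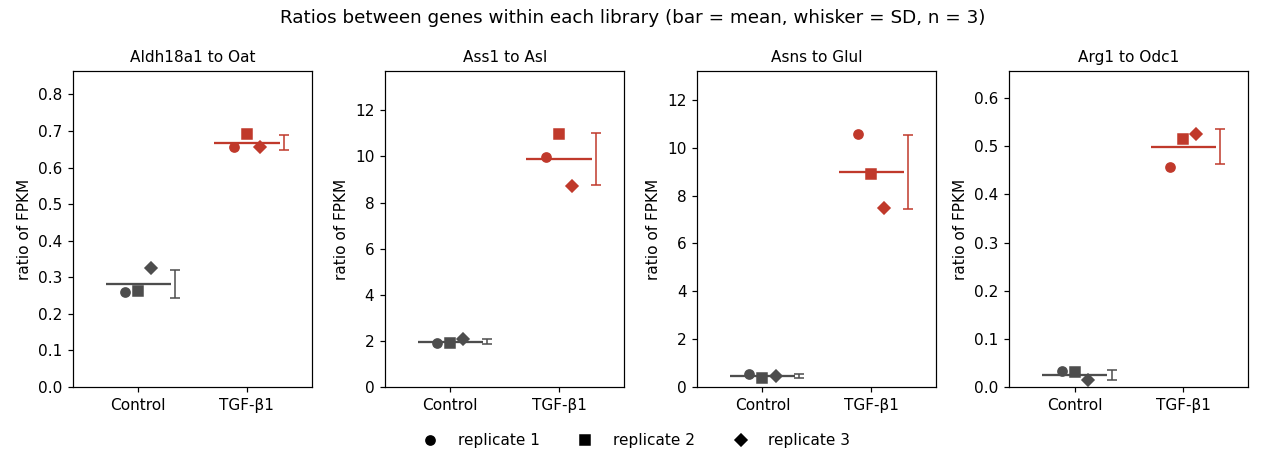
Within-library measures (vertical axes, linear from 0) in Control and TGF-β1 libraries, with marker shapes for replicates, bars for means and whiskers for SD (n = 3): the FPKM ratios of Aldh18a1 to Oat, Ass1 to Asl, Asns to Glul and Arg1 to Odc1. In each panel the TGF-β1 points lie above the Control points, as for Asns to Glul with 7.47 to 10.6 against 0.372 to 0.529.

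The changes of the 8 genes were compared over 17 alternative settings of scaling, filtering, pseudocount and samples. Aldh18a1, Pycr1, Arg1, Ass1 and Asns were called higher in each of the 17, with log2 changes of 1.40 to 1.65 for Aldh18a1, 2.55 to 3.00 for Pycr1, 3.08 to 3.85 for Arg1, 1.83 to 2.08 for Ass1 and 2.16 to 2.41 for Asns. Oat was called in 14 of the 17. Prodh and Arg2 were called in none, and their lowest limma adjusted p-values were 0.309 and 0.347.

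**Figure D4:**
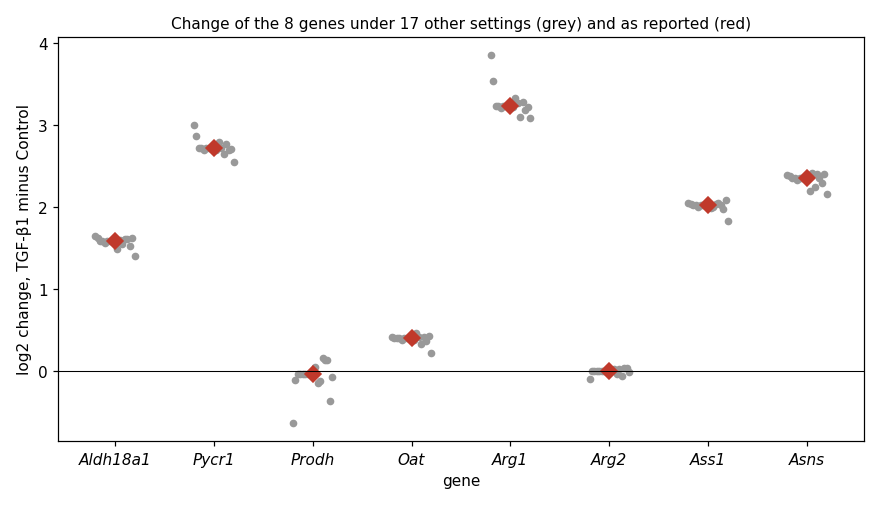
Log2 change (vertical axis, TGF-β1 minus Control) of each of the 8 genes as reported (red diamonds) and under each of 17 other settings (grey points). The points of Aldh18a1, Pycr1, Arg1, Ass1 and Asns stay above 1, those of Oat lie between 0.21 and 0.47, and those of Prodh and Arg2 fall on both sides of 0.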

How the data were processed

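RNA-Seq libraries of 3 Control and 3 TGF-β1 samples were analysed. Reads of low quality were discarded by the authors, who aligned the others to mm9 with TopHat (TopHat2 2.0.11 in the submitters' processing notes) and obtained FPKM from Cufflinks. The deposited FPKM values carry no stated scaling between libraries. A row names 1 transcript, and whether its value covers the whole gene is not given in the sources used here. The study tested counts with DESeq, but counts were not used here.

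For tests, log2(FPKM + 1) entered limma (version 3.58.1, R 4.3.3; lmFit and eBayes with trend, two-sided), and p-values were adjusted by Benjamini-Hochberg over 11898 rows with a mean of at least 1 FPKM. Genes below this came from the same fit over all 19730 rows. The code was tested on simulated data. An exact 0 can be a failed estimate, so zeros are described as listed. Gene positions are from GENCODE M1 (mm9). Low values gave whole fragments, within 0.1, in at least 99.49% of the single-transcript genes used per library. Python 3.11.15 and matplotlib 3.10.9 were used.

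The genes and lists were chosen with earlier results of these data known, and 2 listed genes are not reported here. Of each list up to 3 called genes with the largest change were named, and all tested genes of a list with fewer than 4 tested. Pycrl, Asl, Odc1, Glud1 and Gpt2 were added after their values were seen. Gpt and Gatm are given only as contrasts to Gpt2 and Gamt, also after their values were seen, and were not followed over the alternatives. Replicate numbers are shared between groups, and the deviations of same-numbered libraries correlated at 0.09, 0.23 and 0.09. Those of differently numbered libraries correlated at -0.19 to 0.12. The libraries are not known to be paired and were not taken as pairs, and a replicate block was run as an alternative. Alternatives comprised pseudocounts of 0.1 and 0.5, no filter and a filter of 3 FPKM, 2 scalings, no trend, an adjusted p under 0.01, a replicate block, a term for replicate 2, replicates 1 and 3 alone and the removal of each library.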

Additional observations from a re-analysis of the deposited data

How the results depend on the processing

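Of the 17 alternatives, 16 were planned and 1, scaling to the sum of protein-coding rows (300 nt or longer), was added after the data were seen. The number of called rows stayed within 1.5 times of 5721 in all of them except at an adjusted p under 0.01, where 3672 were called and, of the 40 other pathway genes, 13, both by construction of a stricter threshold. Leaving out 1 library gave 14 to 20 calls among those 40 genes, against 22, and 4419 to 5446 among all rows. Of the 8 genes, 5 or 6 were called throughout. With the replicate number as a block, 5391 rows, 6 of the 8 genes and 17 other pathway genes were called. The block ended the calls of Asl, Slc25a29, Paox and Odc1 among the named genes, and the libraries are not known to be paired. Values that were not called turned sign in a few settings, and the cause was not tested. The log2 change of Prodh was 0.042 within replicates 1 and 3, and it was -0.37 to 0.16 when 1 library was left out. For Arg2 that range was -0.069 to 0.031, and for Pycrl -0.10 to 0.25. Pycrl had -0.075 with scaling to protein-coding rows. Depth limits Arg2, which rests on about 2 fragments or fewer per library. For Prodh the number of fragments depends on which transcripts its row covers, which is not given in the sources used here.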
